A study of Mus musculus with 13 samples.

Results

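Genes that mark tissue macrophages were followed in developing mouse limb buds: C1qa, C1qb, C1qc, Csf1r, Mrc1 and Tyrobp. They were taken by gene symbol, with earlier results of these data known, and all 6 of 6 symbols were found among the 12880 genes of the limb table. The data were RNA-seq profiles of 13 libraries in 4 groups, each made from total RNA of whole limb buds of separate embryos. At E11.5 (E for embryonic day) there were 3 controls, Sox9fl/-, and 4 libraries labelled Sox9null, Sox9-/-. At E12.5 there were 3 controls, Sox9fl/fl, and 3 libraries labelled Sox9cKO, Sox9fl/flPrx1CreER. Every group carried altered Sox9 alleles, a floxed one in the controls included, so none was wild type. The E11.5 controls had a single floxed copy beside a null one, and the E12.5 controls carried the floxed copy on both chromosomes. Sox9null was thus compared with embryos that also carried a null allele. Prx1CreER is a tamoxifen-inducible Cre recombinase expressed from a Prx1 promoter, which is active mainly in limb mesenchyme. The time of induction, and how the Sox9-/- embryos were bred, is not stated in the labels or headers. The study concerned the role of SOX9, the transcription factor of early cartilage, in limb bud cells.

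Tissue macrophages of the embryo descend from blood progenitors of the yolk sac and fetal liver and settle in organs as these form. In limb buds they engulf dying cells, and their survival depends on signalling through the CSF1 receptor. C1qa, C1qb and C1qc encode the A, B and C chains of C1q, the recognition molecule of the classical complement pathway, which is secreted mainly by macrophages and only works when all the chains are present. Csf1r (ENSMUSG00000024621, on the plus strand of chromosome 18) encodes the receptor for CSF1 and IL-34. Tyrobp encodes DAP12, an adaptor that signals for receptors such as TREM2, and is also made by other myeloid cells and natural killer cells. Mrc1 encodes the mannose receptor CD206, which takes up glycoproteins, and is also made by lymphatic and some vascular endothelial cells.

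In the GENCODE mouse annotation, release 21, on GRCm38 (the assembly of mm10), all of them are protein-coding. The C1q genes stand side by side on the minus strand of chromosome 4 within 18675 bases: C1qb (ENSMUSG00000036905) from 136880129 to 136886187, C1qc (ENSMUSG00000036896) from 136889804 to 136893065 and C1qa (ENSMUSG00000036887) from 136895917 to 136898803. Tyrobp (ENSMUSG00000030579) lies on the plus strand of chromosome 7 from 30413760 to 30417585. Mrc1 (ENSMUSG00000026712) lies on the plus strand of chromosome 2 from 14229392 to 14332057.

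RefSeq promoter sequences (GRCm38.p6) were at hand for 3 of the 6, C1qb, C1qc and Mrc1, and these are shown. Each is written 5′ to 3′ on the gene's own strand and ends at its RefSeq start, or earlier where GENCODE puts the start further upstream. For C1qb the RefSeq start lies upstream of the GENCODE start. Capitals mark the letters ACTTCCT, the reverse complement of AGGAAGT, the core of sites bound by PU.1, a transcription factor of myeloid cells. The windows are chr4:136886201-136886450 for C1qb, chr4:136893066-136893164 for C1qc and chr2:14229164-14229391 for Mrc1.
C1qb: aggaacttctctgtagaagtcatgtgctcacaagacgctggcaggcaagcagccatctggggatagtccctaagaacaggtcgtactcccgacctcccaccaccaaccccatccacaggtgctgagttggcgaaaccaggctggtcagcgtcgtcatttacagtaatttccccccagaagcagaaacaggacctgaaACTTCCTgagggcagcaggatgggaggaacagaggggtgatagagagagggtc
C1qc: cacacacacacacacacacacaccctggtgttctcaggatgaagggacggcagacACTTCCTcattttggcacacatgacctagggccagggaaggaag
Mrc1: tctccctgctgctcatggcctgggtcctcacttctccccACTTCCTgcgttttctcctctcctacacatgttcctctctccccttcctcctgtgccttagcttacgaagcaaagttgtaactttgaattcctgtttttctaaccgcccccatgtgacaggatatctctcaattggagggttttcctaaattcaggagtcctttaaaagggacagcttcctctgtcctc

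The 250 bases before the RefSeq start of each gene were searched on both strands. AGGAAGT was found in all 3 promoters, at 53 to 47 bases before the start in C1qb, 195 to 189 in C1qc and 211 to 205 in Mrc1. It was found in 7.69% of the 32851 promoters of the same length, and it was added to the search after the sequences had been seen. The longer GAGGAAGT, which contains it, was in C1qc only and in 2.44% of all promoters. The C/EBP motif TTGCNNAA (9.56% of all promoters), the IRF motif, 2 copies of GAAA with any 2 bases between them (2.98%), and the TATA box TATAAA (12.4%) were in none of the 3 windows. These matches describe the letters of the windows and no binding was measured.

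The values are normalized RPKM, read numbers scaled by gene length and library size, so levels can be set side by side between genes. No read totals were at hand. Sox9, the targeted gene, lay between 35.8 and 49.3 RPKM in the E11.5 controls and between 20.6 and 25.7 in Sox9null. At E12.5 it lay between 35.2 and 37.5 RPKM in the controls and between 28.7 and 35.1 in Sox9cKO. Sox9 fell at E11.5 (-0.76 on the log2 scale, limma adjusted p = 0.036), and the difference at E12.5 (-0.18) did not pass (limma adjusted p = 1), so Sox9-deficient is used below as the study's term for the 2 mutant groups. By correlation, the E11.5 libraries formed a set of 4, made of Sox9null 3 and 4 with controls 1 and 3, and a set of 3, made of Sox9null 1 and 2 with control 2, with Pearson r across genes of 0.979 to 0.989 within the sets and 0.938 to 0.966 between them. No label or header says what the sets stand for. In the later groups, Sox9cKO 3 stood apart: its median r with the E11.5 libraries was 0.955, against 0.92 to 0.939 for the other E12.5 libraries. The sets were sought among the E11.5 libraries only, so no E12.5 library was placed in either. The 2 ages also differ in the alleles carried, so age, alleles and preparation cannot be told apart in comparisons of E12.5 with E11.5. Nor can more macrophages and more RNA per macrophage be told apart in whole limb buds.

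All 6 genes were low but measured in every library, between 2.43 and 15.4 RPKM. They were higher at E12.5 than at E11.5, and no difference between Sox9-deficient and control limb buds passed the test at either age. The summed level of the 6 was 25.4 to 29.8 RPKM in the E11.5 controls and 23.0 to 36.4 in Sox9null. It was 47.8 to 57.7 RPKM in the E12.5 controls and 38.7 to 68.2 in Sox9cKO.

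**Figure D1:**
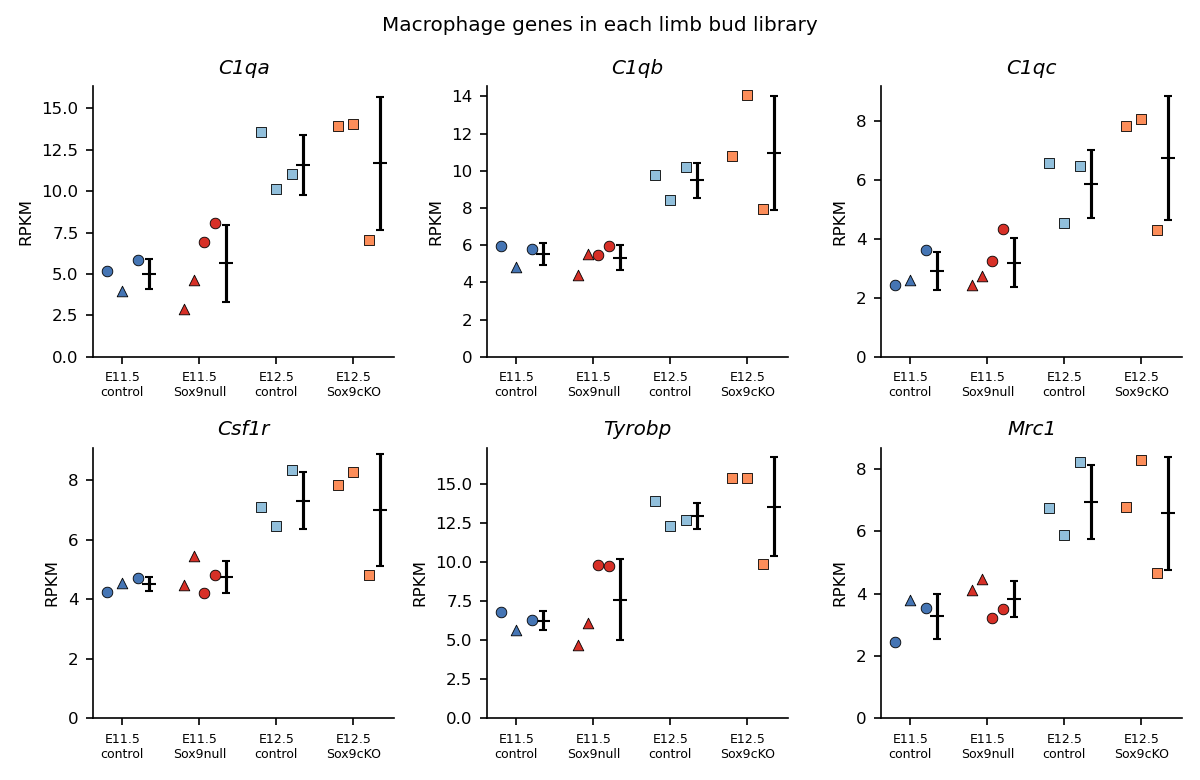
Normalized RPKM (y axes) of the 6 macrophage genes by library and group (x axis); circles are E11.5 libraries of the set of 4, triangles those of the set of 3, squares E12.5 libraries, and bars the mean ± SD (n = 3, 4, 3 and 3). All E12.5 controls lie above all E11.5 controls for each gene, and the third Sox9cKO library is the lowest of its group in each.

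C1qa, the A chain of C1q, was at 5.19, 3.98 and 5.82 RPKM in E11.5 controls 1 to 3 and at 2.88, 4.64, 6.96 and 8.10 RPKM in Sox9null 1 to 4. At E12.5 it was at 13.6, 10.1 and 11.0 RPKM in the controls and at 13.9, 14.1 and 7.06 RPKM in Sox9cKO. The Sox9null libraries lay on both sides of their controls, and all E12.5 libraries but Sox9cKO 3 were above all E11.5 libraries. In order of mean level, the E11.5 controls (5.00 ± 0.933 RPKM, SD, n = 3) came before Sox9null (5.64 ± 2.34, n = 4), the E12.5 controls (11.6 ± 1.795, n = 3) and Sox9cKO (11.7 ± 4.01, n = 3). Neighbours of the same age overlapped.

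C1qb, the B chain, was at 5.96, 4.84 and 5.78 RPKM in the E11.5 controls and at 4.37, 5.55, 5.49 and 5.93 RPKM in Sox9null. It was at 9.79, 8.44 and 10.2 RPKM in the E12.5 controls and at 10.8, 14.1 and 7.94 RPKM in Sox9cKO. It was the steadiest of the C1q chains at E11.5, and every E12.5 library was above every E11.5 library. Its means were 5.34 ± 0.672 RPKM in Sox9null (n = 4), 5.53 ± 0.598 in the E11.5 controls (n = 3), 9.49 ± 0.929 in the E12.5 controls (n = 3) and 10.9 ± 3.07 in Sox9cKO (n = 3), where neighbours of the same age overlapped.

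C1qc, the C chain, was the lowest of the C1q genes in all 13 libraries. It was at 2.45, 2.62 and 3.64 RPKM in the E11.5 controls and at 2.43, 2.76, 3.26 and 4.34 RPKM in Sox9null. At E12.5 it was at 6.57, 4.54 and 6.49 RPKM in the controls and at 7.85, 8.09 and 4.31 RPKM in Sox9cKO. Sox9cKO 3 was just below Sox9null 4, and the other E12.5 libraries were above all E11.5 libraries. The group means rose from 2.90 ± 0.644 RPKM in the E11.5 controls (n = 3) and 3.20 ± 0.834 in Sox9null (n = 4) to 5.87 ± 1.15 in the E12.5 controls (n = 3) and 6.75 ± 2.12 in Sox9cKO (n = 3).

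Csf1r, the growth factor receptor, varied least between the E11.5 libraries. It was at 4.25, 4.53 and 4.72 RPKM in the controls and at 4.47, 5.46, 4.22 and 4.80 RPKM in Sox9null. At E12.5 it was at 7.11, 6.46 and 8.34 RPKM in the controls and at 7.84, 8.27 and 4.83 RPKM in Sox9cKO. Sox9cKO 3 was within the range of Sox9null, and the other E12.5 libraries were above it. The means were 4.50 ± 0.238 RPKM in the E11.5 controls (n = 3), 4.74 ± 0.539 in Sox9null (n = 4), 6.98 ± 1.88 in Sox9cKO (n = 3) and 7.30 ± 0.955 in the E12.5 controls (n = 3), again with overlap within each age.

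Tyrobp, the adaptor, had the highest mean of the 6 in each group. It was at 6.82, 5.65 and 6.30 RPKM in the E11.5 controls and at 4.71, 6.12, 9.79 and 9.77 RPKM in Sox9null. It was at 13.9, 12.3 and 12.7 RPKM in the E12.5 controls and at 15.4, 15.4 and 9.90 RPKM in Sox9cKO. Sox9null 3 and 4 were above every E11.5 control, Sox9null 1 was below them, and Sox9cKO 3 was barely above Sox9null 3. The means were 6.26 ± 0.586 RPKM in the E11.5 controls (n = 3), 7.60 ± 2.58 in Sox9null (n = 4), 13.0 ± 0.827 in the E12.5 controls (n = 3) and 13.6 ± 3.18 in Sox9cKO (n = 3).

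Mrc1, the mannose receptor, was at 2.46, 3.80 and 3.55 RPKM in the E11.5 controls and at 4.13, 4.46, 3.23 and 3.50 RPKM in Sox9null. It was at 6.75, 5.88 and 8.23 RPKM in the E12.5 controls and at 6.79, 8.27 and 4.65 RPKM in Sox9cKO. Here Sox9null 1 and 2 were the high E11.5 mutant libraries, the reverse of C1qa and Tyrobp, and every E12.5 library was above every E11.5 library. The means were 3.27 ± 0.714 RPKM in the E11.5 controls (n = 3), 3.83 ± 0.566 in Sox9null (n = 4), 6.57 ± 1.82 in Sox9cKO (n = 3) and 6.95 ± 1.19 in the E12.5 controls (n = 3).

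In control limb buds, all 6 macrophage genes rose from E11.5 to E12.5, in limma on log2(RPKM + 1) with p-values adjusted over all 12880 genes. By that rule 16.5% of all genes rose. C1qa rose by 1.07 on the log2 scale (SE 0.309, limma adjusted p = 0.0291), a ratio of mean RPKM of 2.32. C1qb rose by 0.68 (SE 0.165, limma adjusted p = 0.0131) and C1qc by 0.81 (SE 0.228, limma adjusted p = 0.0256). Outside the complement genes, Tyrobp rose by 0.95 (SE 0.23, limma adjusted p = 0.0138) and Csf1r by 0.59 (SE 0.159, limma adjusted p = 0.0219). Mrc1 rose by 0.90 (SE 0.189, limma adjusted p = 0.00674), a ratio of mean RPKM of 2.13. The E12.5 and E11.5 controls did not overlap for any of the 6, as for 32.6% of all genes in that direction. The median log2 difference was 0.86 over the 6 and 0.06 over all genes tested. With libraries rescaled to a common median the median over all genes was -0.04, and the share of calls that were higher went from 76.1% to 41.5%; it was 64.1% with a common upper quartile, and all 6 macrophage genes stayed higher under both.

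These calls rest on few libraries, and calls over all genes fell in the same fits. Of the 12880 genes 2126 rose, against 1105 without E12.5 control 1, 1310 without E12.5 control 3 and 1420 without E11.5 control 1. Without E12.5 control 1, 1 of the 6 was called (Mrc1), without E12.5 control 3, 2 were called (Tyrobp and Mrc1), and without E11.5 control 1, 3 were called (C1qb, Tyrobp and Mrc1). Leaving out E11.5 control 2 ended the calls of C1qa and C1qc, and leaving out E12.5 control 2 that of C1qa. Mrc1 kept its call under all 17 alternatives. C1qa lost it under 7, among them leaving out any E12.5 control and a term for the sex of the embryo (adjusted p up to 0.109). All the controls at E12.5 and 1 of 3 at E11.5 were male by their Y-linked genes. Against the E11.5 controls of the set of 4 alone, the differences of the 6 were 0.59 to 0.99 on the log2 scale. Against E11.5 control 2, the only control of the set of 3, they were 0.58 to 1.33.

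In Sox9-deficient limb buds, 5 of the 6 rose from E11.5 to E12.5, where 14.5% of all genes rose. C1qb rose by 0.89 (SE 0.154, limma adjusted p = 0.00472) and kept its call under all 18 alternatives. C1qa rose by 0.95 (limma adjusted p = 0.0392), C1qc by 0.86 (limma adjusted p = 0.0183), Tyrobp by 0.79 (limma adjusted p = 0.0267) and Mrc1 by 0.63 (limma adjusted p = 0.0302). Csf1r was 0.45 higher and did not pass (SE 0.149, limma adjusted p = 0.0522). Sox9cKO and Sox9null did not overlap for C1qb, Tyrobp and Mrc1, as for 23.7% of all genes in that direction. The median was 0.83 over the 6 and 0.06 over all genes. With a common median 45.4% of the calls were higher in place of 73.5%, and 60.3% with a common upper quartile. The common median also ended the call of Mrc1 (0.56, limma adjusted p = 0.0516), which left 4 of the 6. Without Sox9cKO 3 all 6 were called, and Csf1r was then 0.66 higher (limma adjusted p = 0.00551). Without Sox9cKO 1 or Sox9cKO 2 a single gene, C1qb, was called, and without Sox9null 2 there were 3, C1qb, C1qc and Mrc1. Leaving out Sox9null 1 ended the call of C1qa, and leaving out Sox9null 3 or Sox9null 4 that of Mrc1. Fitted on the 7 libraries compared alone, 1 was called, C1qb. Over all genes 1865 rose in the main fit and 1281 without Sox9cKO 3. The number was 682 without Sox9cKO 1, 529 without Sox9cKO 2, 1292 without Sox9null 2 and 683 in the fit on those 7 libraries. With a term for library set, which sets E12.5 against the level of the set of 4, C1qa lost its call (0.62, limma adjusted p = 0.0762). Csf1r then gained one (limma adjusted p = 0.0351). The 2 age comparisons share no library but share the confounding of age with alleles and preparation. Their difference, which equals the difference of the mutant effects, lay between -0.28 (Mrc1) and 0.20 (C1qb) and was called for none of the 6, with 0.0311% of all genes called.

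**Figure D2:**
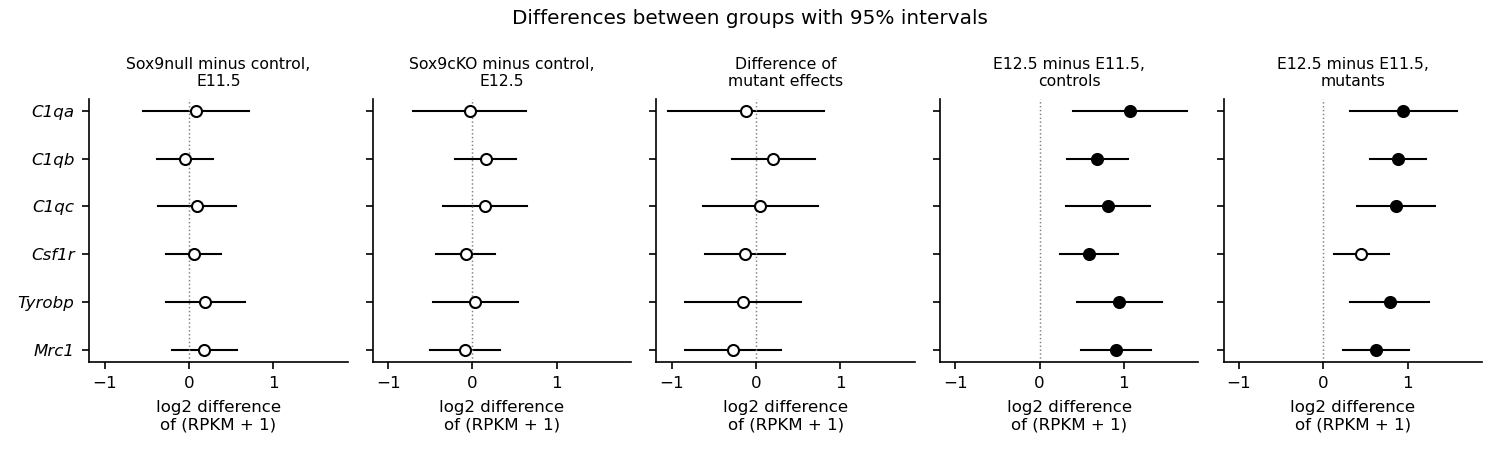
Log2 differences of (RPKM + 1) with 95% intervals (x axes) for the 6 macrophage genes (rows) in the 5 comparisons (panels); filled points have a limma adjusted p under 0.05. All 6 points are filled in the control age comparison, 5 in the mutant one, and none in the others, where every interval holds 0.

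The E11.5 comparison of Sox9null with control limb buds gave small differences of both signs. They lay between -0.05 (C1qb) and 0.20 (Tyrobp) on the log2 scale, with a median of 0.09 and a limma adjusted p of 1 for each of the 6. None was called, none had an unadjusted p under 0.05, and 0.0543% of all genes were called. The 95% intervals of the 6 reached from -0.55 to 0.72 together, so changes within those bounds are not excluded by these libraries. For Csf1r the interval was -0.27 to 0.38, and for C1qa it was -0.55 to 0.72. In the set of 4 the differences were between -0.03 and 0.51. In the set of 3, where control 2 is the only control, they were between -0.09 and 0.14. The widest gap between the sets was that of Tyrobp, 0.51 against -0.06.

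The spread within Sox9null followed the library sets for some of the genes only. C1qa and Tyrobp, with coefficients of variation of 41.5% and 34.0%, were high in Sox9null 3 and 4 and low in 1 and 2. C1qc (26.1%) was also higher in 3 and 4, with a smaller spread. C1qb (12.6%), Csf1r (11.4%) and Mrc1 (14.8%) varied less. Mrc1 still followed the sets, in the reverse direction. Controls included, it was at 3.80 to 4.46 RPKM in the set of 3 and 2.46 to 3.55 in the set of 4. As a result the genes' ratios differed between libraries. The ratio of C1qa to C1qb RPKM was 1.27 and 1.37 in Sox9null 3 and 4, and 0.658 and 0.835 in Sox9null 1 and 2. It was 0.872, 0.822 and 1.01 in the E11.5 controls. The ratio of Tyrobp to Csf1r was 2.32 and 2.04 in Sox9null 3 and 4 against 1.05 and 1.12 in 1 and 2, and 1.61, 1.25 and 1.33 in the controls. Other blood lineages stood out in the same 2 libraries. The summed level of 19 red cell genes was 1473 and 1624 RPKM in Sox9null 3 and 4, and 924 to 1021 RPKM in the other E11.5 libraries. The sum of 6 megakaryocyte genes was 70.5 and 66.6 RPKM there against 33.1 to 53.3 in the others. The part of these cells in the ratios was not tested.

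**Figure D3:**
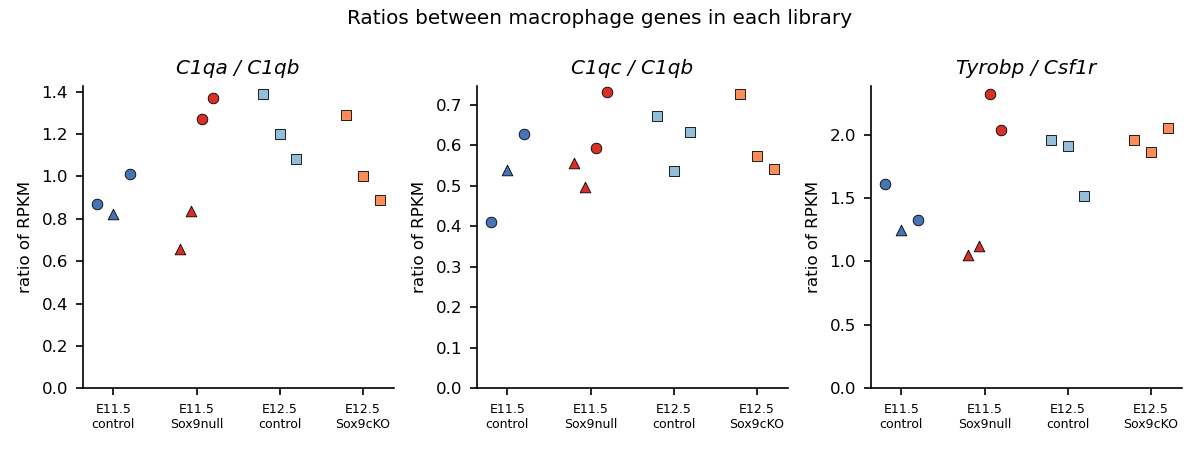
Ratios of normalized RPKM (y axes) of C1qa to C1qb, C1qc to C1qb and Tyrobp to Csf1r by library and group (x axis); circles are E11.5 libraries of the set of 4, triangles those of the set of 3, squares E12.5 libraries. Sox9null falls into a pair near 2 or above and a pair near 1 for Tyrobp to Csf1r, while the E12.5 libraries lie between 1.52 and 2.05.

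At E12.5 the ratio of C1qa to C1qb was 1.39, 1.20 and 1.08 in the controls and 1.29, 1.00 and 0.89 in Sox9cKO, and C1qc to C1qb was between 0.538 and 0.728 in all 6 libraries. Sox9cKO 3, the lowest Sox9cKO library for all 6 macrophage genes, had levels 0.504 (C1qa) to 0.643 (Tyrobp) times the mean of Sox9cKO 1 and 2. Its ratio of C1qa to C1qb was the lowest of the E12.5 libraries, its C1qc to C1qb (0.543) the lowest of its group, and its Tyrobp to Csf1r (2.05) the highest. Its sum of 10 skeletal muscle genes was also the lowest of the E12.5 libraries, 127.2 RPKM against 169.5 to 221.0. It was the only male library of its group. The part of these in its macrophage levels was not tested.

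The E12.5 comparison of Sox9cKO with controls gave log2 differences between -0.09 (Mrc1) and 0.16 (C1qb), with a median of 0.00 against 0.01 over all genes. None was called or had an unadjusted p under 0.05, the limma adjusted p was 1 for each, and 0.194% of all genes were called. The intervals reached from -0.71 to 0.65 together. Without Sox9cKO 3 the differences of C1qa (0.27), Csf1r (0.13) and Mrc1 (0.11) turned positive and still did not pass. With a term for sex, Mrc1 was at -0.37 and Csf1r at -0.28, and C1qc turned negative at -0.05, none of them called. In the same comparison all 19 of 19 listed red cell genes were above 0 and 2 of them, Rhag and Spnb1, rose. The red cell sum was 736 to 788 RPKM in the controls and 997 to 1222 in Sox9cKO, while the sums of the 6 macrophage genes overlapped, as given above.

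Other genes of macrophages and of the same pathways were taken from 6 lists of 155 symbols in all, of which 63 were among the listed genes. None of the 63 was called in a mutant comparison (4 had an unadjusted p under 0.05 at E11.5 and 5 at E12.5). From E11.5 to E12.5, 25 rose and none fell in the controls, and 19 rose and none fell in the Sox9-deficient libraries, with a median difference of 0.25 in both. That none fell holds for the scaling as deposited: with a common median 20 rose and 3 fell in the controls and 16 and 4 in the mutants, with a common upper quartile 25 and 3, and 19 and 4. With a term for library set, which sets E12.5 against the level of the set of 4, it was 30 and 6 in the controls and 25 and 5 in the mutants. Over all genes that fit gave 3378 and 2367, and 2713 and 2277. Of the 63, 6 (Cebpa, Emr1, Fcrls, Irf5, Ly86 and Mpeg1) had a mean of at least 3 RPKM at E12.5 only, the authors' condition for listing a gene, so their rise was partly built into the list. Of the other 57, 19 rose in the controls (33.3%, against 15.1% of the 12399 genes that met the condition at both ages) and 15 in the Sox9-deficient libraries (26.3%, against 13.5%). All of the 6 macrophage genes met it at both ages, though C1qc met it at E11.5 in Sox9null (mean 3.20 RPKM) and not in the controls (2.90). Without E12.5 control 1 or control 3 the control count of 25 was 13, and without E11.5 control 1 or control 2 it was 16. The mutant count of 19 was 7 without Sox9cKO 1, 5 without Sox9cKO 2 and 11 without Sox9null 1. Higher calls over all genes also fell, in the same order. In the controls they went from 2126 to 1105, 1310, 1420 and 1521, and in the mutants from 1865 to 682, 529 and 1275.

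Among 24 further macrophage genes, 12 rose with age in the controls and 11 in the Sox9-deficient libraries. Without the 4 listed through E12.5 only (Emr1, Fcrls, Ly86 and Mpeg1), 8 of 20 and 7 of 20 rose, against 15.1% and 13.5% of all genes that met the condition at both ages. Emr1, one of those 4, encodes the F4/80 antigen and was at 1.53 ± 0.313 RPKM in the E11.5 controls and 4.57 ± 0.625 in the E12.5 controls (SD, n = 3 each), 1.14 higher on the log2 scale (limma adjusted p = 0.00126). Cx3cr1, the fractalkine receptor, went from 3.95 to 7.56 RPKM in the controls and from 4.04 to 7.77 RPKM in the mutants, and rose in both (limma adjusted p = 0.011 and 0.0106). Ctss, the lysosomal protease cathepsin S, rose by 1.01 in the controls (limma adjusted p = 0.0156), and F13a1, coagulation factor XIII A, by 1.08 (limma adjusted p = 0.000555). Not every macrophage gene rose. Cd68, a lysosomal glycoprotein of phagocytes, was at 9.40 ± 0.705 RPKM in the E11.5 controls and 9.36 ± 1.51 in the E12.5 controls (limma adjusted p = 0.937). Fcer1g, the Fc receptor gamma chain and an adaptor like Tyrobp, was 0.40 higher in the controls and did not pass (limma adjusted p = 0.0698). Coro1a and Laptm5, of leukocytes at large, did not pass in either comparison.

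In the pathway of Csf1r, the ligand gene Csf1 was at 4.54 ± 0.859 RPKM in the E11.5 controls and 5.41 ± 0.169 in the E12.5 controls, 0.22 higher (limma adjusted p = 0.247). The gene of the other ligand, Il34, was not among the listed genes, and neither was Spi1, which encodes PU.1. Of the 9 listed genes of this pathway, 5 rose in the controls, where 16.5% of all genes rose: Cebpa, Csf2ra, Irf5, Lyn and Maf. The means of Cebpa and Irf5 reached 3 RPKM at E12.5 only, so their rises were partly built into the list. Maf, a transcription factor of macrophages, was at 3.26 ± 0.927 and 6.30 ± 1.29 RPKM (limma adjusted p = 0.0269). Lyn, a Src-family kinase, rose alone of the 9 in the mutants as well (0.36, limma adjusted p = 0.0116), where 14.5% of all genes rose. For Tyrobp a single partner gene was listed, Ptpn6, a phosphatase, which did not pass in either age comparison. Trem2 and Syk, which act before and after DAP12, were not among the listed genes.

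In the complement list, C1ra and C1s, the proteases that associate with C1q, were not among the listed genes. Of the 6 listed genes 3 rose in both age comparisons, where 16.5% (controls) and 14.5% (mutants) of all genes rose. Serping1, the inhibitor of those proteases, went from 5.76 ± 0.571 to 8.09 ± 0.462 RPKM in the controls (limma adjusted p = 0.0134). Megf10, a receptor for engulfment, went from 3.12 ± 0.565 to 6.50 ± 0.889 RPKM (limma adjusted p = 0.0144). Cd93, once described as a C1q receptor, went from 15.6 ± 0.189 to 19.3 ± 0.415 RPKM (limma adjusted p = 0.0035); it is made mainly by endothelium. Calr and Lrp1, with high levels in many cell types, were 0.28 and 0.21 lower in the controls and did not pass.

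Of 20 genes for the clearance of apoptotic cells, 4 rose in the controls and 3 in the mutants, shares close to the 16.5% and 14.5% of all genes, so the list did not stand out. Gas6 and Pros1, the bridging ligands of the TAM receptors, rose by 0.75 (limma adjusted p = 0.00275) and 0.62 (limma adjusted p = 0.0029), and the receptor gene Axl by 0.45 (limma adjusted p = 0.00624). Dnase2a, which degrades the DNA of engulfed cells, rose by 0.37 (limma adjusted p = 0.036). The 3 in the mutants were Gas6, Pros1 and Mertk, another TAM receptor gene. Of the 3 listed relatives of Mrc1 among endocytic lectins and receptors, Colec12 rose in both (0.52 in the controls, limma adjusted p = 0.00607), while Mrc2 and Ly75 did not pass. Mrc2 and Mertk, at 30.3 and 24.7 RPKM in the E12.5 controls, stood above Mrc1 (6.95 RPKM) per length; Mrc2 is also made by fibroblasts.

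**Figure D4:**
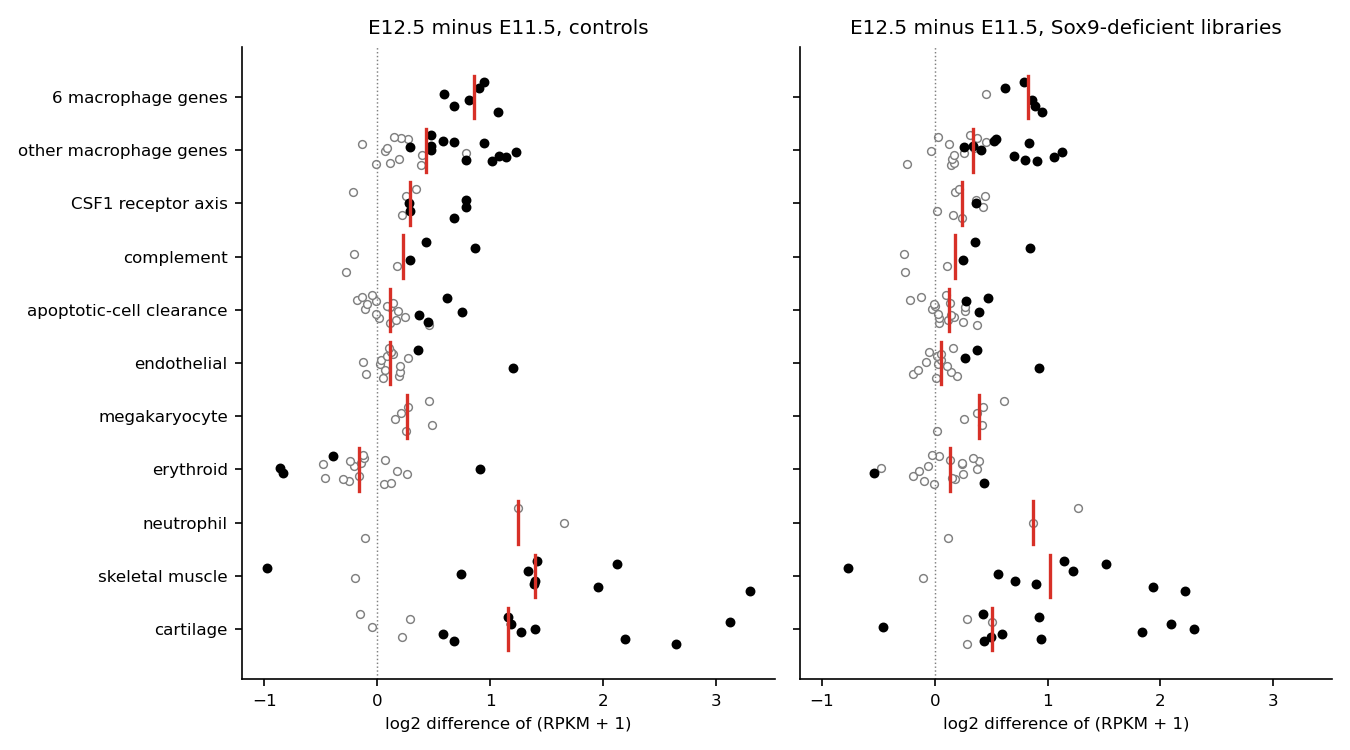
Log2 differences of (RPKM + 1) between E12.5 and E11.5 (x axes) for each listed gene of 11 lists (rows) in controls and in Sox9-deficient libraries; filled points have a limma adjusted p under 0.05 and red bars are list medians. The 6 macrophage genes have medians of 0.86 and 0.83; the muscle (1.40 and 1.02) and neutrophil (1.25 and 0.87) lists have higher ones in both panels, and the cartilage list (1.16) in the controls.

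Some lists of other cells moved as much with age as the 6 macrophage genes, or more. Over all 12880 genes 16.5% rose and 668 fell in the controls, and 14.5% rose and 674 fell in the mutants. Of 10 skeletal muscle genes 8 rose and 1 fell in both age comparisons, with medians of 1.40 in the controls and 1.02 in the mutants. Of 13 cartilage genes 9 rose in each comparison, with 1 fall in the mutants, and medians of 1.16 and 0.50. They were not the same genes: Acan and Matn1 rose in the controls only, and Col2a1 and Sox9 in the mutants only. The means of Acta1, Chrna1, Acan and Matn1 reached 3 RPKM at E12.5 only, so their rises were partly built into the list. Of 16 endothelial genes, 2 rose in the controls (Erg and Tek) and 3 in the mutants (Erg, Tek and Pecam1). These are close to the shares of all genes, so the list did not stand out. The sum of the 16 was 204 to 218 RPKM in the E11.5 controls and 242 to 247 in the E12.5 controls. Of 6 megakaryocyte genes, of which Pf4 is also in the macrophage list, none was called, with all 6 above 0 in both age comparisons, and their sums were 39.0 to 53.3 and 55.4 to 58.2 RPKM in the controls. Of 3 listed neutrophil genes (S100a8, S100a9 and Prtn3) none was called, with medians of 1.25 and 0.87 in the 2 comparisons and sums of 6.09 to 19.2 RPKM in the E11.5 controls and 20.1 to 27.9 in the E12.5 controls. Cpa3, a mast cell protease, went from 1.12 ± 0.652 to 5.55 ± 1.97 RPKM in the controls (limma adjusted p = 0.00317). Its mean reached 3 RPKM in the E12.5 controls only, so this rise was partly built into the list. Of 19 red cell genes 1 rose and 3 fell in the controls. None of 12 lymphoid symbols was among the listed genes. The part of these cells in the levels of Tyrobp, Mrc1 and the other macrophage genes was not tested.

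The genes whose pattern was most like that of the 6 were ranked by Pearson r of log2(RPKM + 1) over the 13 libraries with the mean of the standardised macrophage genes. This is a description, since the libraries share their age groups and library sets. The 10 highest were Fcrls (r = 0.983), Cnnm2 (0.979), Entpd1 (0.974), Vwa5a (0.973), Emr1 (0.972), Tlr2 (0.971), Cx3cr1 (0.971), Chst2 (0.969), Mpp1 (0.968) and Mpeg1 (0.968). Of the 10, 4 (Fcrls, Emr1, Cx3cr1 and Mpeg1) were in the macrophage list. After each group's mean was subtracted, r was 0.971 for Fcrls, 0.928 for Mpeg1 and 0.84 for Mpp1, the lowest of the 10. The 6 genes themselves, each of which is part of that mean, had r of 0.905 (Mrc1) to 0.979 (C1qc). With the group means subtracted they ranged from 0.589 for Mrc1 and 0.771 for Tyrobp to 0.922 for C1qb and 0.944 for C1qc. Fcrls, an Fc receptor-like gene of microglia and other tissue macrophages, went from 2.72 RPKM in the E11.5 controls to 7.76 in the E12.5 controls. It was at 2.60 RPKM in Sox9null and 7.15 in Sox9cKO. Entpd1, which encodes the ectonucleotidase CD39, and Tlr2, an innate immune receptor, were at 2.39 and 3.40 RPKM in the E11.5 controls and at 4.71 and 6.58 RPKM in the E12.5 controls. Like that of Fcrls, the mean of Entpd1 reached 3 RPKM at E12.5 only, so its rise was partly built into the list.

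The authors' deposited table gives for each gene a p-value over the 4 groups, adjusted for the false discovery rate. In the authors' deposited table it was 0.0695 for C1qa, 0.00942 for C1qb, 0.0338 for C1qc, 0.0487 for Csf1r, 0.0364 for Tyrobp and 0.0217 for Mrc1. It was at most 0.05 for 5 of the 6 in the authors' deposited table, and it does not say which groups differed.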

How the data were processed

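Per the labels, the RNeasy Mini Kit gave total RNA of limb buds and libraries followed Illumina's standard protocol. The submitters' processing notes name CASAVA 1.8 and mm10. How reads were aligned, counted, assigned to strands and normalized between libraries was not given in the sources used. Per the file headers, the authors' values are normalized RPKM per embryo, and a gene is listed if any of the 4 groups has a mean of 3 RPKM or more. The authors' deposited p-value per gene was used only as printed. No source used here gives read totals, and no count model was used.

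log2(RPKM + 1) was fitted with limma 3.58.1 (R 4.3.3; trend, robust), with 1 mean per group over all 13 libraries. A filter of 1 RPKM in 3 libraries removed no gene. Tests were two-sided with a Benjamini-Hochberg adjustment that took in all 12880 genes in each of 5 comparisons, and calls were made at an adjusted p under 0.05. Differences on this scale understate those of low genes. The fit was tested on simulated data. The 6 genes and the lists were chosen with earlier results of these data known. Named besides the 6 were list genes called in a comparison, pathway partners and the 10 most alike; the uncalled Cd68, Fcer1g, Coro1a, Laptm5, Calr, Lrp1, Mrc2 and Ly75 were chosen after their values were seen. Alternatives were pseudocounts of 0.1 and 0.5, other filters and scalings, no trend, fits of the compared groups alone, terms for library set, sex or replicate number, and leaving out each library. The library set term marked the set of 3 alone, so the E12.5 libraries were coded like the set of 4. Since nothing says how embryos were grouped for preparation, p-values measure the spread between these embryos.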

Additional observations from a re-analysis of the deposited data

Results flagged for a closer look

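Of 69 macrophage and pathway genes checked in the 4 Sox9null libraries, 1 had a library far from the others: Cd93, at 17.189 RPKM in Sox9null 2 against 16.4, 16.4 and 16.5 in the other 3. The gap was 0.87 of the group's range, above Dixon's 95% critical value for 4 samples. Chance alone marks about 1 group in 20. None of the 6 macrophage genes was marked, and groups of 3 were not checked.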

How the results depend on the processing

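No mutant comparison or difference of effects gave a call among the 6 macrophage genes or the 63 further genes under any alternative. The rises with age kept their direction in all 6 genes under every alternative, and their calls varied. In the controls, leaving out 1 library gave 1 to 6 calls among the 6 and 13 to 22 among the 63. Over all genes it gave 1381 to 2520, against 2794 in the main fit. In the Sox9-deficient libraries it gave 1 to 6 and 5 to 23, and 708 to 2926 over all genes, against 2539. Fitted on the compared groups alone, the Sox9-deficient libraries gave 1 and 5 calls, with 924 over all genes. With a term for library set 30 of the 63 were called, 25 higher and 5 lower, with 4990 over all genes. The cause was not tested.

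The labels do not say whether replicate numbers pair the samples. Deviations of same-numbered libraries correlated at -0.435, 0.635 and 0.441 at E11.5 and at 0.169, 0.027 and -0.117 at E12.5. At E11.5 the libraries numbered 2 share a library set, as do those numbered 3, and those numbered 1 do not. With the replicate block, 2 of the 6, 9 of the 63 and 1057 of all genes were called in the Sox9-deficient age comparison. C1qa lost its call in the controls (limma adjusted p = 0.0641). The block turned the E11.5 mutant difference of C1qa to -0.091 and of C1qc to -0.025, and the difference of effects of C1qa to 0.058.

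Uncalled mutant differences also changed sign otherwise. For C1qc the sex term gave -0.054 at E12.5 and -0.13 for the difference of effects, and the library set term gave -0.000893 for the latter. Leaving out 1 library gave ranges across 0 for 13 values. At E11.5 these were C1qa (-0.091 to 0.32), C1qb (-0.12 to 0.032), C1qc (-0.025 to 0.23) and Csf1r (-0.0019 to 0.10). At E12.5 they were C1qa (-0.19 to 0.27), C1qb (-0.026 to 0.35), Csf1r (-0.20 to 0.13), Tyrobp (-0.064 to 0.23) and Mrc1 (-0.25 to 0.11). For the difference of effects they were C1qa (-0.35 to 0.18), C1qc (-0.10 to 0.30), Csf1r (-0.26 to 0.075) and Tyrobp (-0.34 to 0.037). With 3 or 4 embryos a group, RPKM levels of 2 to 15 and read totals not given, smaller mutant differences than the intervals printed could not be seen.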
